A study of Mus musculus with 4 samples.

Results

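Bmp3 encodes a divergent bone morphogenetic protein, and on mouse chromosome 5 it lies among Antxr2, Prdm8, Fgf5, Prkg2 and Rasgef1b. These 6 genes, of 24421 gene symbols in the read count table, were chosen by their position around Bmp3 and by earlier results of these same libraries, in which neighbours of Bmp3 were higher in DPPIV+ than in DPPIV- fibro-adipogenic progenitors (FAPs). The difference between DPPIV+ and DPPIV- FAPs therefore selected the genes, and for them it is described here without a test. The data went against a shared direction for the whole group: Bmp3, Prkg2, Prdm8 and Antxr2 were higher in DPPIV+ FAPs, Rasgef1b was lower, and Fgf5 had 2 reads in 4 libraries.

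FAPs are mesenchymal stromal cells of skeletal muscle, and DPPIV, the surface peptidase encoded by Dpp4, splits them into subsets. Libraries came from 2 wild-type mice, and each mouse gave 1 library of DPPIV- FAPs and 1 of DPPIV+ FAPs. Both mice, and so both cell types, had received 3 weeks of CSF1R inhibition, which removes macrophages that need this receptor, and then 3 days of withdrawal on normal chow. Cells were sorted as PI-, CD31-, CD45-, Sca1+ and either DPPIV- or DPPIV+. No library came from an uninhibited mouse, so what the 6 genes do without the inhibitor was not analysed here. The sample labels name the Tibialis Anterior as the source, whereas the protocol describes muscle of both hindlimbs.

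The libraries held 18240110 to 20879405 reads on genes, and 3 reads corresponded to 0.144 to 0.164 CPM, the reads of a gene scaled to a common library size. Dpp4 counts were 1879 and 776 in the DPPIV- libraries of mouse 1 and mouse 2, and 13106 and 10476 in the DPPIV+ libraries, so the sort marker followed the labels in both mice. FAP markers summed to 34400 and 32700 CPM in DPPIV- against 27800 and 28800 CPM in DPPIV+ libraries. Of the 6, edgeR and DESeq2 each called 2 higher and 4 lower in DPPIV+ FAPs. Over all 11588 tested genes, edgeR called 15.9% higher and 17.2% lower in DPPIV+ FAPs, and DESeq2 called 7.97% and 8.59%. Of the marker lists of other cells, the 4 tenocyte markers were all called higher in DPPIV+ FAPs by both tools and summed to 197 and 295 CPM in DPPIV- against 749 and 1550 CPM in DPPIV+ libraries. The 5 endothelial markers summed to 251 and 186 CPM against 505 and 460 CPM, a sum carried by Tek (log2 fold change 1.42) while the other 4 were called lower by edgeR and 0 of these by DESeq2. Mural markers were called lower in 5 of 6 by edgeR and in 3 by DESeq2, with sums of 121 and 123 CPM against 51.2 and 63.5 CPM. Macrophage markers summed to 46.0 to 77.0 CPM over the libraries, with 2 of 5 called lower by edgeR and 0 by DESeq2. Satellite cell markers summed to 2.87 to 5.21 CPM, myofibre markers to 40.7 to 63.9 CPM, and glial markers to 12.3 to 20.4 CPM with 1 of 3 tested called lower. The part of such cells in the values below was not tested, and in these bulk libraries fewer cells of a type cannot be told apart from less RNA per cell.

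Bmp3 and Fgf5 encode secreted ligands. Bone morphogenetic proteins signal through type I and type II serine kinase receptors, and BMP3 is known to bind activin type II receptors and to counteract osteogenic members of its family. FGF5 acts on FGF receptors and is best known for ending the growth phase of hair. Antxr2 encodes a cell surface receptor for extracellular matrix proteins that anthrax toxin also uses. Prkg2 encodes the membrane-bound cGMP-dependent protein kinase, known from growth plate cartilage and intestine, which acts downstream of guanylyl cyclases. Rasgef1b encodes an exchange factor for the small GTPase Rap2, and Prdm8 encodes a nuclear repressor of the PRDM family that partners with the factor encoded by Bhlhe22.

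In RefSeq positions on GRCm38.p6, the 6 protein-coding genes spanned 1368.2 kb of chromosome 5. Antxr2 occupied chr5:97884688-98031017 on the minus strand and stood head to head with Prdm8 at chr5:98167203-98187454 on the plus strand, 136.2 kb away. Fgf5 followed on the plus strand at chr5:98254184-98277033, 66.7 kb beyond Prdm8. A gap of 577.4 kb separated Fgf5 from Bmp3, which lay at chr5:98854415-98884053 on the plus strand. Prkg2, at chr5:98929773-99037375 on the minus strand, ended 45.7 kb from the end of Bmp3, so this pair stood tail to tail and was the closest of the neighbouring pairs. Rasgef1b lay 180.0 kb further on at chr5:99217420-99252927, on the minus strand. GENCODE M21 extends Rasgef1b to chr5:99217426-99729065, a span of 511.6 kb with 13805 exon bases in place of 6329, so the RefSeq start used here lies inside the GENCODE gene and the span of the 6 genes would be longer.

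Over the RefSeq spans, 5 of the 6 genes had exons that no other GENCODE gene shared. The exception was Prdm8, of which 1411 exon bases overlapped the antisense gene A730035I17Rik, a gene outside the count table. The strand setting of the counting is not given in the sources used here, so reads of the pair cannot be told apart and the Prdm8 level is uncertain to that extent. No other transcript matched any of the 6 genes over at least 50 bases at 97% identity or more. The part of Rasgef1b that only GENCODE gives was not searched in full for shared exons. The RefSeq gene A930011G23Rik, with 0, 2, 0 and 0 reads, lies there and was not matched to a GENCODE gene.

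RefSeq start sites with promoter sequence were at hand for Antxr2, Prdm8, Fgf5 and Rasgef1b. The 4 promoters are shown because adjacent genes differed so much in the libraries, from the most abundant (Antxr2) through one higher (Prdm8) and one lower (Rasgef1b) in DPPIV+ FAPs to one almost without reads (Fgf5). Each runs 5′ to 3′ on its gene's strand from 250 bases before to 50 bases after the start. Capitals mark the TATA motif TATAAA, the core of the GC box written GGGCGG and the core of the CAAT box written CCAAT, each also as its reverse complement. They lie at chr5:98030968-98031267 (Antxr2, minus strand), chr5:98180619-98180918 (Prdm8, plus strand, at a start inside the gene's span), chr5:98253934-98254233 (Fgf5, plus strand) and chr5:99252878-99253177 (Rasgef1b, minus strand).
Antxr2: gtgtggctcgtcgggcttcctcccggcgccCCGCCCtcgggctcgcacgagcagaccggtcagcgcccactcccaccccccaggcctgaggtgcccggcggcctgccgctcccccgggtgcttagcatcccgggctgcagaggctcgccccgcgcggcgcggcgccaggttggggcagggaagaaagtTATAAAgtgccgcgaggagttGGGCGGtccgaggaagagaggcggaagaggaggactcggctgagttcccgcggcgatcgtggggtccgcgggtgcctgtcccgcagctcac
Prdm8: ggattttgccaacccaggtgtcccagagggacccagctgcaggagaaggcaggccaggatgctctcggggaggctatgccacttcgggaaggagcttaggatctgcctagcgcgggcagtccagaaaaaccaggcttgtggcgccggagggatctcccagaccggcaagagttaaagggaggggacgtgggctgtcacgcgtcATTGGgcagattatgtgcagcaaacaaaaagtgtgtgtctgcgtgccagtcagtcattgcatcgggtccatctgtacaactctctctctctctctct
Fgf5: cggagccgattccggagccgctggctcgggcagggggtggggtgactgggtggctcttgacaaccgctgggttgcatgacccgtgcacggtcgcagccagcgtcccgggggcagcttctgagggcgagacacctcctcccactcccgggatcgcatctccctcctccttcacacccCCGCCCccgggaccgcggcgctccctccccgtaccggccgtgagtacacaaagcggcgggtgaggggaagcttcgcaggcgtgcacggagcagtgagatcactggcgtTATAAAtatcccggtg
Rasgef1b: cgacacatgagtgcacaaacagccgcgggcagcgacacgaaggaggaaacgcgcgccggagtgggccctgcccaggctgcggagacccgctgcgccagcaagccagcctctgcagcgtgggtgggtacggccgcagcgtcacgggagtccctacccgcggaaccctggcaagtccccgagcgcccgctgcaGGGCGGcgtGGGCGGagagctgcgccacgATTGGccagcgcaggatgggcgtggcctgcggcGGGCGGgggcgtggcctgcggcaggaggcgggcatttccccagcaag

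CpG content did not order the 4 promoters as the reads of their genes did. Whether the counted transcripts began at these starts was not tested. Antxr2 and Rasgef1b held 35 CpG each, above 93.0% of the 32851 promoters in the RefSeq table, and Fgf5 held 29, above 87.1% of them. Prdm8 held 12 CpG, closer to the median of 7. The promoter of Fgf5, with 2 reads in all, was thus as rich in CpG as promoters in the upper quartile, which began at 20. Of the motifs searched on both strands, TATAAA was found once in Antxr2, 62 bases before the start, and once in Fgf5, from 35 bases into the transcript, whereas 13.6% of all promoters held it. GGGCGG was found 2 times in Antxr2, 1 time in Fgf5 and 3 times in Rasgef1b, and 35.7% of promoters held it. CCAAT, held by 37.4% of promoters, was found once in Prdm8 and once in Rasgef1b, and TGANTCA (7.81%) in none of the 4 windows. CANNTG, held by 72.3%, was found 3 times in Prdm8 and once in Rasgef1b. These are matches of letters only.

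Levels of the 6 genes are given as CPM on TMM-scaled library sizes, in the order DPPIV- mouse 1, DPPIV- mouse 2, DPPIV+ mouse 1 and DPPIV+ mouse 2, with means ± SD over the 2 mice. Log2 fold changes are of DPPIV+ over DPPIV- FAPs with mouse in the model, each with its standard error (SE). With 2 libraries of each cell type, values without overlap are a description only, and the share of all genes that show it is not given.

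Bmp3, the ligand at the centre of the region, was counted 35, 15, 937 and 565 times, or 1.67, 0.767, 52.0 and 31.0 CPM. Both DPPIV+ libraries lay far above both DPPIV- libraries, and within each cell type mouse 1 was the higher. The mean was 1.22 ± 0.64 CPM in DPPIV- and 41.5 ± 14.9 CPM in DPPIV+ libraries (SD, n = 2). This was a log2 fold change of 5.08 (SE 0.16), or 33.9-fold. The log2 ratio was 4.95 in mouse 1 and 5.33 in mouse 2. Among the 11588 genes tested, Bmp3 ranked 4 from the highest fold change.

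Fgf5, the other ligand, had 0, 0, 2 and 0 reads. All 4 libraries were under the 3 reads that a count of 0 allows, so no fold change was computed and expression of Fgf5 was not detectable at this depth in either cell type.

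Antxr2, the matrix receptor, was counted 14647, 12604, 15402 and 14424 times, or 700.0, 644.0, 855.0 and 791.0 CPM. It was abundant in all 4 libraries, and both DPPIV+ values lay above both DPPIV- values. The means were 672.0 ± 39.3 CPM and 823.0 ± 45.3 CPM, and the log2 fold change was 0.29 (SE 0.07), with ratios of 0.29 in mouse 1 and 0.30 in mouse 2.

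Prkg2, the cGMP-dependent kinase, was counted 57, 30, 477 and 361 times, or 2.72, 1.53, 26.5 and 19.8 CPM. As for Bmp3, the cell types did not overlap and mouse 1 was the higher in each. DPPIV- libraries had a mean of 2.13 ± 0.842 CPM and DPPIV+ libraries one of 23.1 ± 4.73 CPM. The log2 fold change was 3.44 (SE 0.17), or 10.9-fold, and Prkg2 ranked 26 of the 11588 genes. Its log2 ratio was 3.28 in mouse 1 and 3.69 in mouse 2.

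Rasgef1b, the Rap2 exchange factor, was counted 248, 215, 131 and 120 times, or 11.9, 11.0, 7.28 and 6.58 CPM. Here the DPPIV- libraries were the higher ones, again without overlap. The means of 11.4 ± 0.608 CPM and 6.93 ± 0.489 CPM gave a log2 fold change of -0.72 (SE 0.16), 1.65-fold lower in DPPIV+ FAPs, with -0.70 in mouse 1 and -0.74 in mouse 2.

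Prdm8, the nuclear repressor, was counted 908, 627, 1830 and 1659 times, or 43.4, 32.1, 102.0 and 91.0 CPM. The DPPIV+ libraries held the higher values in both mice. The means were 37.7 ± 8.02 CPM and 96.3 ± 7.51 CPM, with a log2 fold change of 1.36 (SE 0.07), or 2.57-fold, and ratios of 1.23 in mouse 1 and 1.51 in mouse 2.

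**Figure D1:**
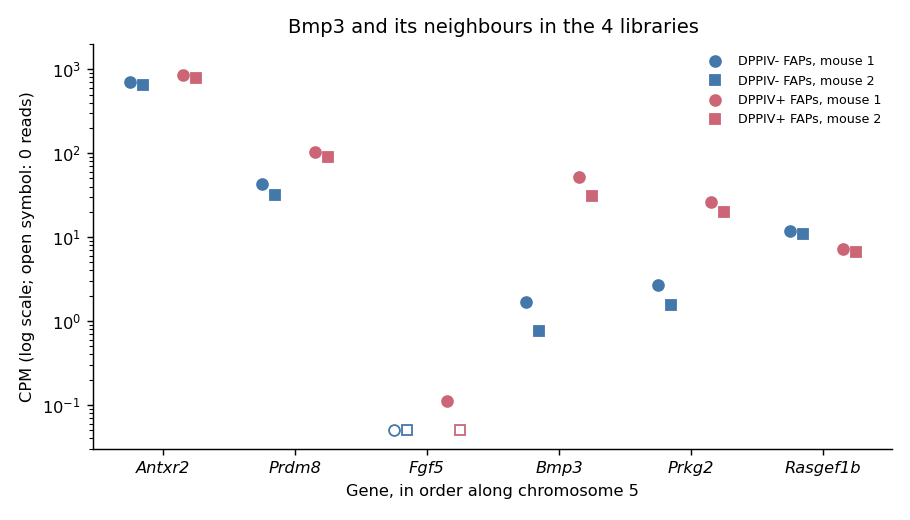
Level of each of the 6 genes in the 4 libraries, in CPM on a log axis, with genes in their order along chromosome 5, cell types by colour and mice by symbol; open symbols at the bottom stand for 0 reads. Bmp3 lay at 1.67 and 0.767 CPM in DPPIV- against 52.0 and 31.0 CPM in DPPIV+ FAPs, Rasgef1b was the one gene with higher DPPIV- values, and Fgf5 had reads in 1 library only.

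Of the 5 genes with enough reads to be tested, 4 were thus called higher in DPPIV+ FAPs, where 15.9% of all tested genes were called higher, and 1 was called lower, where 17.2% were. Because this contrast selected the genes, nothing is read from these counts.

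Per kilobase of exon, which allows levels of different genes to be compared (RPKM), Antxr2 was the highest in both cell types at 119.0 ± 6.95 in DPPIV- and 146.0 ± 8.01 in DPPIV+ FAPs, followed by Prdm8 at 8.29 ± 1.76 and 21.2 ± 1.65. In DPPIV+ FAPs the next levels were Bmp3 at 6.27 ± 2.25 RPKM and Prkg2 at 4.66 ± 0.952 RPKM. Their ranges over the libraries overlapped (4.68 to 7.86 for Bmp3, 3.99 to 5.33 for Prkg2), although Bmp3 was the higher of the pair in each mouse, and the difference was not tested. Rasgef1b was below them in DPPIV+ FAPs, at 1.09 ± 0.0773 RPKM. In DPPIV- FAPs Rasgef1b came next, at 1.80 ± 0.096 RPKM, above Prkg2 at 0.428 ± 0.169 and Bmp3 at 0.184 ± 0.0967 RPKM. Over all GENCODE exons Rasgef1b came to 0.827 ± 0.044 RPKM in DPPIV- and 0.502 ± 0.0355 RPKM in DPPIV+ FAPs, which left its place in both orders as it was. Among the 5 tested genes the lowest places therefore differed between the cell types. Fgf5, with too few reads to set a level, was left out of these orders. The DPPIV- levels of Bmp3 and Prkg2 rested on 15 to 57 reads per library.

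The DPPIV- level was compared with that of the sort marker as a share of the DPPIV+ level in the same mouse. For Dpp4 the share was 12.3% in mouse 1 and 6.90% in mouse 2. Bmp3 had shares of 3.21% and 2.47%, below those of Dpp4, and Prkg2 had 10.3% and 7.74%, close to them. Prdm8 stood apart with 42.7% and 35.2%, as did Antxr2 with 81.8% and 81.4%. For each of the 4 genes and for Dpp4 the share was the smaller in mouse 2. How far DPPIV+ cells in the DPPIV- gate add to these shares was not tested.

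The 5 genes most like Bmp3 over the 4 libraries, by the distance between centred log2 CPM profiles among 11588 genes, were Cldn3, Krtdap, Dmkn, Ano3 and Bmp8a. Cldn3 encodes a tight junction claudin, Krtdap and Dmkn secreted proteins known from keratinocytes, Ano3 a membrane protein of the anoctamin family, and Bmp8a another BMP ligand. Cldn3 was at a distance of 0.57 log2 units and was counted 14, 4, 228 and 145 times. Krtdap was at 0.58, with 23, 10, 403 and 259 reads, and Dmkn at 0.82, with 43, 19, 659 and 400 reads. All 5 had, as Bmp3 had, the higher value in mouse 1 within each cell type, a likeness that the choice by distance over these same libraries favours. Ano3, at 0.92, had 11, 5, 143 and 122 reads, and Bmp8a, at 1.08, had 8, 3, 91 and 64 reads. Of the neighbours of Bmp3, Prkg2 was 18th in this order at a distance of 1.69, whereas Prdm8 (3.83), Antxr2 (4.92) and Rasgef1b (5.92) ranked 209, 1391 and 10674. The ranks are a description over 4 libraries. Of 8 other epithelial genes looked up after these values were seen, 5 had no reads in any library and all 8 together reached at most 0.357 CPM in a library, and 4 mesothelial genes reached at most 0.165 CPM. Any part of epithelial or mesothelial cells in the values of Bmp3 and these 5 genes was not tested.

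Whether the genes differed between the 2 mice was tested with the mouse term of the same model, which the choice of the genes did not use directly. The choice favoured genes higher in DPPIV+ FAPs, and whether such genes differ between the mice more often than others was not tested. Nothing about the genes as a group is therefore read from the share over all genes. Bmp3, Prkg2 and Prdm8 were called lower in mouse 2 by edgeR's quasi-likelihood test, that is 3 of the 5 tested genes, against 523 of 11588 genes over the table (4.51%). For Bmp3 the log2 fold change of mouse 2 over mouse 1 was -0.78 (SE 0.13, edgeR adjusted p = 8.25e-08). For Prkg2 it was -0.50 (SE 0.16, edgeR adjusted p = 0.0205), and for Prdm8 -0.28 (SE 0.07, edgeR adjusted p = 0.00146). Antxr2 and Rasgef1b did not pass, each with -0.12 (SE 0.07 and 0.16) and edgeR adjusted p of 0.355 and 0.744. These 3 calls were lost with DESeq2, which called 45 of 10914 genes lower in mouse 2 (0.412%) and gave adjusted p of 0.0545 for Bmp3, 0.752 for Prkg2 and 0.683 for Prdm8. With 1 mouse on each side, the test sets the difference against the spread left in the 4 libraries and compares these 2 mice.

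The lower value in mouse 2 was seen in both cell types. For Bmp3 the log2 ratio of mouse 2 over mouse 1 was -1.12 in DPPIV- and -0.75 in DPPIV+ FAPs, for Prkg2 -0.83 and -0.42, and for Prdm8 -0.44 and -0.16. The ratio was thus further from 0 in DPPIV- FAPs for each of the 3 genes, a difference that was not tested, as a term for it leaves no residual degrees of freedom. Dpp4 moved with them, at -1.18 in DPPIV- and -0.34 in DPPIV+ FAPs, and was itself called lower in mouse 2 (log2 fold change -0.71, SE 0.07, edgeR adjusted p = 2.63e-20, DESeq2 adjusted p = 0.927). Marker lists moved between the mice as well: edgeR called all 5 endothelial and 2 of 5 macrophage markers lower in mouse 2, and all 4 tenocyte and all 4 tested myofibre markers higher, where 4.51% of all genes were called lower and 4.47% higher. Of these calls DESeq2, with 0.596% of all genes higher in mouse 2, made 1, for a tenocyte marker. Their part in the difference was not tested.

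**Figure D2:**
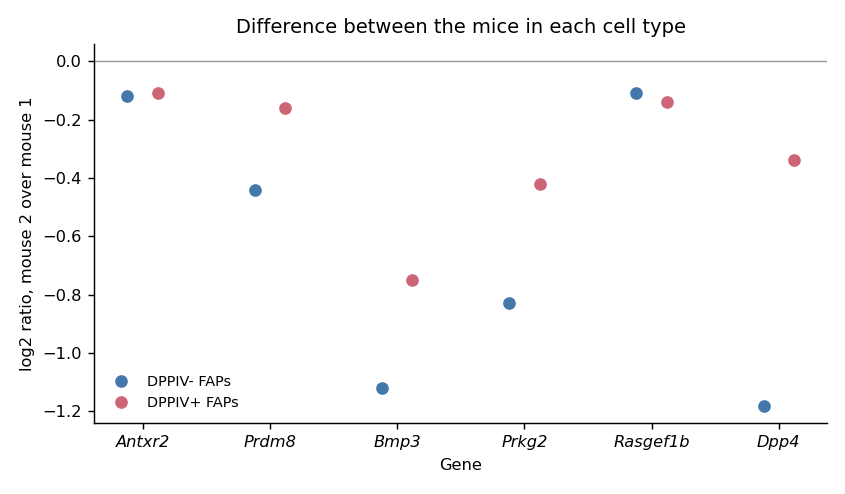
Log2 ratio of mouse 2 over mouse 1 for the 5 tested genes and Dpp4, in DPPIV- and in DPPIV+ FAPs, each point 1 library over another. Bmp3, Prkg2 and Prdm8 lay below 0 in both cell types and lower in DPPIV- FAPs, with Dpp4 at -1.18 and -0.34, while Antxr2 and Rasgef1b stayed between -0.14 and -0.11.

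The 6 genes were also set beside the rest of their region. The other 32 genes of the count table placed between them or within 2 Mb on either side were described. Of these, 7 had no reads in any library and 20 were tested, of which 7 were called higher and 2 lower in DPPIV+ FAPs by edgeR, against 15.9% and 17.2% of all tested genes. DESeq2 called 5 higher and 0 lower. Their median log2 fold change was 0.19, against -0.00 over all 11588 tested genes. The region was chosen from earlier results of this same contrast in these same libraries. Nothing about the region is therefore read from these counts, from those of either side below or from the adjusted p-values given there. The only other genes between the 6 were 1700007G11Rik, with 0 reads in all libraries, and Mir703, with 3, 2, 6 and 1 reads, both in the gap between Fgf5 and Bmp3.

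The genes called higher lay mostly beyond Antxr2, where 5 of 6 tested genes were called by edgeR (15.9% over all genes) and the median was 0.80. Anxa3, which encodes a phospholipid-binding annexin, was counted 2297, 1689, 9446 and 7776 times. Its DPPIV+ libraries lay above both DPPIV- libraries, with a log2 fold change of 2.28 (SE 0.07, edgeR adjusted p = 5.88e-213). Cxcl13, a chemokine that draws B cells, was counted 398, 302, 748 and 734 times (log2 fold change 1.25, SE 0.09, edgeR adjusted p = 1.38e-39). Bmp2k, a kinase gene first described as induced by BMP2, had a log2 fold change of 0.69 (SE 0.11), and it shares 1185 exon bases with Paqr3 on the opposite strand. Fras1, which encodes a basement membrane protein, changed by 0.92 (SE 0.29) on 26 to 63 reads, and Cnot6l, a deadenylase subunit, by 0.19 (SE 0.08). With DESeq2, 3 of these 5 were called, without Fras1 (adjusted p = 0.389) and Cnot6l (adjusted p = 0.575). No gene on this side was called lower, by edgeR or DESeq2 or at an unadjusted edgeR p under 0.05.

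Beyond Rasgef1b, 2 of 14 tested genes were called higher and 2 lower, near the 15.9% and 17.2% over all genes, and the median was 0.03. Hpse, which encodes heparanase, was counted 439, 304, 1008 and 793 times (log2 fold change 1.45, SE 0.09, edgeR adjusted p = 1.46e-58). Plac8 was counted 593, 450, 1221 and 870 times (1.16, SE 0.08, edgeR adjusted p = 2.13e-45). In both, the DPPIV+ libraries were the higher ones without overlap. The RNA-binding protein genes Hnrnpd (-0.20, SE 0.07) and Hnrnpdl (-0.18, SE 0.07) were called lower by edgeR and not by DESeq2 (adjusted p = 0.399 and 0.469). Close to the 6 genes few others were measured: within 1 Mb or between them, 4 of 16 were tested, with 1 higher, 2 lower and a median of -0.19. In the mouse comparison, 3 of the 20 tested locus genes, Anxa3, Hpse and Plac8, were called lower in mouse 2 by edgeR, against 4.51% of all genes. DESeq2 made none of these 3 calls (adjusted p = 0.0647, 0.445 and 0.306).

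**Figure D3:**
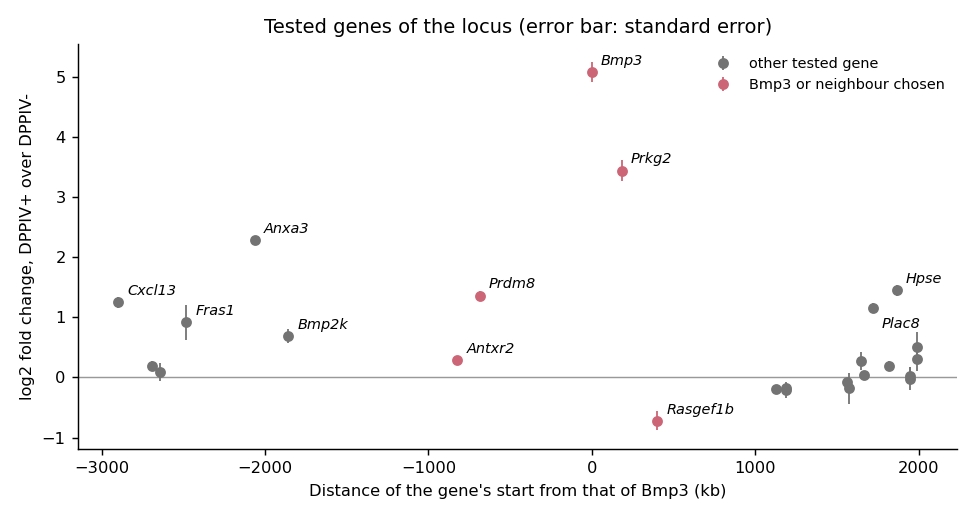
Log2 fold change of DPPIV+ over DPPIV- FAPs for the 5 tested genes of the chosen 6 and the 20 other tested genes of the region, by distance of each gene's start from that of Bmp3 in kb, with bars of 1 SE. Bmp3 (5.08) and Prkg2 (3.44) stood above their surroundings, Rasgef1b (-0.72) was the lowest point, and Anxa3 (2.28) was the highest of the genes not chosen.

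Relatives and pathway genes of the 6 genes, none of them in this region, were then listed by role. Over the 6 lists, whose tested genes are numbered below, edgeR called 5 genes higher and 22 lower in DPPIV+ FAPs. DESeq2 called 5 higher and 13 lower. Over all tested genes the shares were 15.9% and 17.2% with edgeR, and 7.97% and 8.59% with DESeq2. The lists were chosen with earlier results of these data known, so nothing is read from these counts.

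Of the 8 relatives and receptors of the Bmp3 ligand, 7 were tested, 0 were called higher and 3 lower, with a median log2 fold change of -0.28. At an unadjusted edgeR p under 0.05 the count of higher genes was again 0, and so it was with DESeq2. Gdf10, the closest relative of Bmp3 and also called BMP3B, was counted 9141, 7777, 852 and 1117 times. Its DPPIV- libraries were far above its DPPIV+ libraries, the opposite order to that of Bmp3, with 80.1 ± 5.32 RPKM against 10.4 ± 1.89 RPKM and a log2 fold change of -2.95 (SE 0.07). The ratio was -3.21 in mouse 1 and -2.70 in mouse 2. Within a library, the RPKM of Gdf10 was 332.0 and 659.0 times that of Bmp3 in DPPIV- FAPs and 1.16 and 2.51 times in DPPIV+ FAPs, so Gdf10 remained the higher of the pair in all 4 libraries. Gdf10 did not differ between the mice beyond the threshold (0.08, SE 0.07, edgeR adjusted p = 0.579). Acvr2a, the gene of an activin type II receptor, was counted 2381, 1891, 981 and 904 times (log2 fold change -1.01, SE 0.07), and Acvr1, a type I receptor gene, was called lower by edgeR at -0.28 (SE 0.07) and not by DESeq2 (adjusted p = 0.169). The list's other activin type II receptor gene, Acvr2b, had 10, 19, 29 and 22 reads, too few to be tested. Its DPPIV+ counts were the higher ones, the opposite order to that of Acvr2a. Acvr2a and Acvr2b are outside the naming rule and were picked out after the values were seen.

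Of 7 relatives and receptors of Fgf5, 3 were tested. Fgfr1, the main FGF receptor gene here at 121.0 ± 1.33 RPKM in DPPIV- and 153.0 ± 4.45 RPKM in DPPIV+ FAPs, was called higher (log2 fold change 0.34, SE 0.07), and Fgfrl1, whose product lacks the kinase domain, was called lower (-0.56, SE 0.11). The related ligand genes Fgf4 and Fgf6 had 2 reads and 0 reads over all libraries. The list's median was -0.38.

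Of 9 relatives and ligands of Antxr2, 8 were tested, with 1 higher, 6 lower and a median of -0.43. Antxr1, its paralogue, was counted 12818, 13462, 17030 and 17637 times and was the one called higher (log2 fold change 0.56, SE 0.07, edgeR adjusted p = 2.26e-14). Antxr1 and Antxr2 were at like levels per length: the ratio of Antxr2 to Antxr1 in RPKM was 1.06 and 0.87 in DPPIV- and 0.84 and 0.76 in DPPIV+ FAPs. The 6 lower genes included 5 collagen genes of types IV and VI, matrix proteins that the receptors are known to bind, and Col4a2 fell the most of them, by 0.83 on the log2 scale (SE 0.08). Both receptor genes were thus higher, and these collagen genes lower, in the DPPIV+ libraries. Lower values were not limited to the list's collagen genes: Col1a1, a FAP marker, was also called lower (log2 fold change -0.40, SE 0.09). A relation between the receptor and collagen genes was not tested.

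Of 16 genes of cGMP signalling other than Prkg2, 13 were tested, 2 were called higher and 8 lower, and the median was -0.66. Npr1, a receptor guanylyl cyclase for atrial natriuretic peptide, was counted 1730, 1178, 5087 and 4433 times. It rose from 71.4 ± 15.9 CPM in DPPIV- to 263.0 ± 27.8 CPM in DPPIV+ FAPs, without overlap (log2 fold change 1.89, SE 0.07, edgeR adjusted p = 3.05e-156), and like Prkg2 it was called lower in mouse 2 (-0.33, SE 0.07, edgeR adjusted p = 7.24e-05; DESeq2 adjusted p = 0.156). Gucy1b3, which encodes the beta subunit of soluble guanylyl cyclase, the nitric oxide receptor, was counted 221, 193, 38 and 35 times and fell by 2.34 on the log2 scale (SE 0.22, edgeR adjusted p = 1.2e-25). The natriuretic peptide genes Nppa and Nppb and the cyclase gene Gucy2c had no reads in any library. Nppc, another natriuretic peptide gene, was counted 53, 48, 31 and 26 times and was not called (log2 fold change -0.66, SE 0.29). Npr2, another receptor guanylyl cyclase gene, was not called either (0.09, SE 0.07), at 89.7 CPM in DPPIV- and 95.4 CPM in DPPIV+ FAPs. Of the 8 lower calls, DESeq2 made 3 and the edgeR fit without the mouse block 4.

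Prkg1, the paralogue of Prkg2, is named here because it is the other cGMP-dependent kinase gene, after its values were seen. It was counted 80, 111, 44 and 53 times and was called lower in DPPIV+ FAPs by edgeR (log2 fold change -0.82, SE 0.24, adjusted p = 0.0028) and not by DESeq2 (adjusted p = 0.255). Per length, the ratio of Prkg2 to Prkg1 was 1.06 and 0.401 in the DPPIV- libraries of mouse 1 and 2, and 16.1 and 10.1 in the DPPIV+ libraries. The DPPIV- levels of the 2 kinases overlapped, at 0.309 to 0.548 RPKM for Prkg2 and 0.518 to 0.769 RPKM for Prkg1, whereas in DPPIV+ FAPs Prkg2 was above Prkg1 in both mice.

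**Figure D4:**
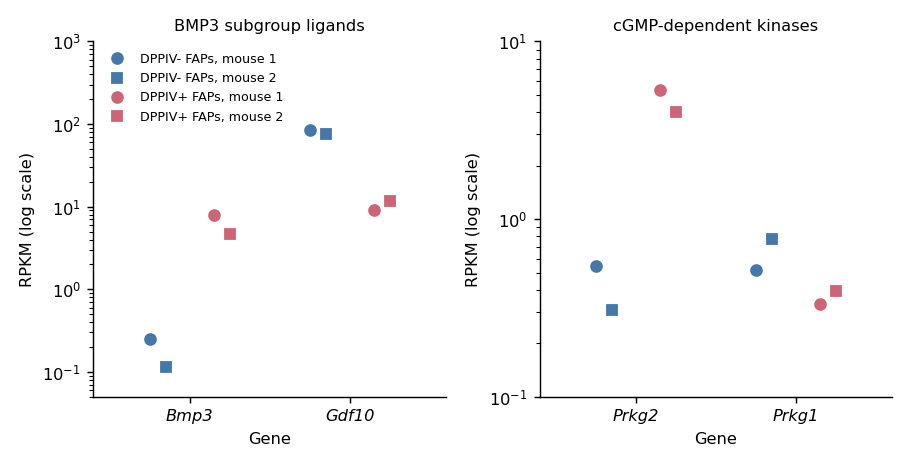
Levels per length in RPKM on log axes, in the 4 libraries, of Bmp3 beside Gdf10 (left) and of Prkg2 beside Prkg1 (right), with cell types by colour and mice by symbol. Bmp3 and Gdf10 ran in opposite directions between the cell types and came within 1.16 and 2.51 times of each other in DPPIV+ FAPs, and Prkg2 was 16.1 and 10.1 times Prkg1 there.

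Of 8 relatives and effectors of Rasgef1b, 7 were tested, with 1 higher, 2 lower and a median of -0.08. The paralogue Rasgef1a was counted 33, 20, 108 and 71 times and was called higher (log2 fold change 1.92, SE 0.27, edgeR adjusted p = 8.71e-12), the opposite direction to Rasgef1b. In RPKM, Rasgef1b was 3.95 and 5.65 times Rasgef1a in DPPIV- and 0.638 and 0.889 times in DPPIV+ FAPs, so the order of the paralogues turned between the cell types in both mice. Over all GENCODE exons of Rasgef1b the ratios were 1.81 and 2.59, and 0.292 and 0.407, with the same turn. Tnik, a kinase that Rap2 binds, was called lower by edgeR (-0.60, SE 0.15) and not by DESeq2 (adjusted p = 0.0931).

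Of 15 PRDM family genes and partners of Prdm8, 8 were tested, 0 were called higher and 2 lower, with a median of 0.06. At an unadjusted edgeR p under 0.05, 1 was higher, and with DESeq2 0 were. Prdm6 was counted 45, 61, 15 and 4 times (log2 fold change -2.31, SE 0.35). Bhlhe22, the known partner, had 6, 5, 1 and 2 reads, too few to be tested. No tested relative thus passed the threshold in the direction of Prdm8.

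**Figure D5:**
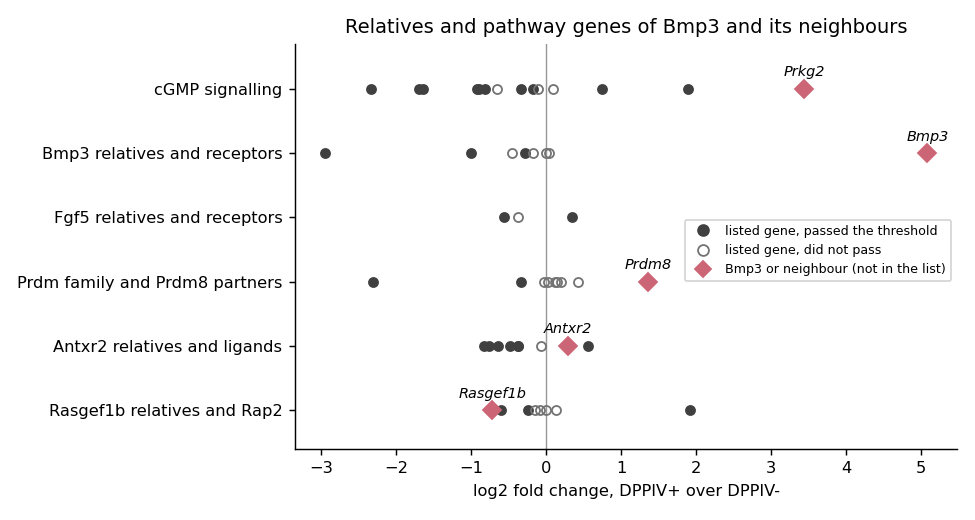
Log2 fold change of DPPIV+ over DPPIV- FAPs for the tested genes of the 6 lists, filled where edgeR's adjusted p passed 0.05, with Bmp3 or its neighbour of the same family as a diamond. The diamonds of Prkg2, Bmp3 and Prdm8 lay to the right of all genes listed in their row, with Npr1 at 1.89 and Gdf10 at -2.95 at the ends of theirs.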

How the data were processed

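Reads were demultiplexed by the authors with bcl2fastq 2.20 and aligned to mm10 with STAR, with Bowtie among the named tools, and the authors deposited raw counts per gene symbol from RnaReadCounter for all 4 libraries, without normalization. The labels name a NEBNext and the paper a TruSeq stranded mRNA kit, and the counting's strand setting is not given in the sources used here. All columns mapped to samples by title, and 0 did not.

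From the deposited counts, 11588 of 24421 genes passed the study's filter, read as 2 CPM or more in 2 or more libraries. Counts were scaled by TMM and fitted in edgeR 4.0.16 (R 4.3.3) with mouse and cell type. Quasi-likelihood F tests were two-sided with Benjamini-Hochberg adjustment over these genes, called at 0.05. Prior degrees of freedom came out infinite, so the spread in these tests came from the trend over all genes and not from each gene's own spread. Very small p-values therefore do not measure how far a gene varies between mice, of which there were 2. SEs are the log2 fold change over the square root of F. Log2 ratios per mouse used a prior count of 0.125. RPKM used the exons of RefSeq-matched GENCODE transcripts. DESeq2 1.42.0 was an alternative. The script was tested on simulated data with known fold changes. Similar transcripts were searched with BLAST 2.17.0. Positions and promoters are from RefSeq on GRCm38.p6, whose coordinates are those of mm10.

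The labels give each animal 1 library per cell type, so mouse was the block. The differences between the mice in the 2 cell types correlated at 0.415 across genes, which are not independent.

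The 6 genes, the lists and the motifs were chosen with earlier results of these data known. Named are the 6 genes, locus genes past the threshold or between them, the highest and lowest called gene of each pathway list, the 5 genes nearest to Bmp3, and Dpp4. Others named were picked after their values were seen. They are the collagen genes as a count, Col1a1, Acvr2a, Acvr2b, Prkg1, Npr2, Nppc, Bhlhe22, and list genes without reads. One gene that this rule names is not reported here.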

Additional observations from a re-analysis of the deposited data

How the results depend on the processing

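With 2 mice, the spread within a cell type rests on 2 libraries, and counts of 3 or fewer set no level. The log2 fold changes of DPPIV+ over DPPIV- FAPs kept their direction for the 5 tested genes under every alternative that gave a value. With all 4 libraries they were 5.07 to 5.11 for Bmp3, 3.43 to 3.47 for Prkg2, 1.35 to 1.37 for Prdm8, 0.29 to 0.30 for Antxr2 and -0.72 to -0.71 for Rasgef1b. Leaving out 1 mouse gives the ratio of the other, with no test: 4.95 to 5.33 for Bmp3, 3.28 to 3.69 for Prkg2, 1.23 to 1.51 for Prdm8, 0.29 to 0.30 for Antxr2 and -0.74 to -0.70 for Rasgef1b. The exon length of Rasgef1b from GENCODE, chosen after seeing the data, lowered its level per length and no fold change. Bmp3 was not tested where 2 CPM were asked in at least 3 libraries. DESeq2 did not call Rasgef1b, and edgeR without the replicate block did not call Antxr2. Over all genes, 1837 higher and 1989 lower calls became 923 and 995 with DESeq2, and 1001 and 1119 without the replicate block. Between the mice, where no unpaired fit exists, 518 higher and 523 lower calls became 65 and 45 with DESeq2. Of the other locus genes, the 2 lower calls became 0 with DESeq2, 0 without the block and 1 with no filter on low counts. Their 7 higher calls became 1 within 1 Mb, because the narrower window leaves out genes placed further away. The 22 lower calls of the lists became 13 with DESeq2. Apart from the change of window, the cause of these losses was not tested. In the mouse comparison, the edgeR adjusted p passed 0.05 for Bmp3, Prkg2 and Prdm8 under the other normalization, filters and moderation wherever the gene was tested, and the range over alternatives, DESeq2 included, was 4.44e-08 to 0.0545, 0.0157 to 0.752 and 0.00142 to 0.683.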
